A study of Mus musculus with 54 samples.

Results

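The genes described here make, sense, move and store cholesterol in the mouse testis and ovary. They are 31 genes, taken by symbol from the gene counts of each tissue, in which each of the 31 was found among 26264 entries. By role, 8 act between acetyl-CoA and squalene, 9 turn squalene into cholesterol, 5 sense sterols or carry the SREBP response, and 9 transport, export, esterify or release cholesterol. The first 2 roles hold 17 genes, called the synthesis genes.

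The data are RNA sequencing of whole adult gonads, 27 libraries of testis and 27 of ovary. Each tissue has 9 groups, with 3 libraries (A, B and C) in each. In the first generation (F1), exposure through the drinking water began at 8.5 days post-coitum and ended at sampling, at 10 weeks of age for males and 8 weeks for females. The labels of the second generation give the same ages. The water held ibuprofen, 2-hydroxyibuprofen, diclofenac and 17a ethinyl-estradiol, the last a synthetic oestrogen. Dose 1 held 11.3 ng/L of ibuprofen, 90 ng/L of its hydroxylated form, 22.5 ng/L of diclofenac and 2.25 ng/L of the oestrogen. At dose 2 these were 113, 225, 112 and 45 ng/L. F1 controls drank water with 0.001% ethanol. The second generation (F2) is labelled as untreated and came from crosses of F1 control or dosed parents. Its 6 groups are named by the parents: both controls (control parents), only the father at dose 1 or 2, only the mother at dose 1 or 2, and both parents at dose 2. No strain is named in the labels used here. No label says whether the libraries of a group are from different litters, and the tests then reflect only how these samples spread, which may be technical. In whole organs, fewer cells of a type and less RNA per cell cannot be told apart.

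Cholesterol is built from acetyl-CoA through mevalonate and squalene, by enzymes of the cytosol and endoplasmic reticulum. When membrane sterol is low, the escort protein SCAP carries SREBP precursors to the Golgi for cleavage, and the released factor switches on the synthesis genes, while INSIG proteins hold SCAP back when sterol is plentiful. In gonads, cholesterol is also the starting material of steroid hormones: Leydig cells of the testis and theca and luteal cells of the ovary keep it as esters and deliver it to mitochondria. Male germ cells also make a meiosis-activating sterol, an intermediate downstream of CYP51.

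SREBP works at promoters beside the factors NF-Y, which reads the CCAAT box, and Sp1, which reads the GC box. The synthesis genes varied together between ovary libraries, as described below. Whether promoter sequence has a part in this was not tested. The sequences are the 250 bases before the start in RefSeq's GRCm38.p6 promoter table, in which 26 of the 31 genes matched. Entries of 1 chromosome and entries not of full length were left out, so a gene without a match here may still have an entry. Capitals mark matches on either strand to the CCAAT box (CCAAT), the GC box (GGGCGG) and a sterol regulatory element core (TCACNCCAC). Hmgcs1 and Mvk stand for the mevalonate part, Msmo1 and Ebp for the later part, and Lipe for a gene outside synthesis.
Hmgcs1, chr13:119690101-119690350, strand plus: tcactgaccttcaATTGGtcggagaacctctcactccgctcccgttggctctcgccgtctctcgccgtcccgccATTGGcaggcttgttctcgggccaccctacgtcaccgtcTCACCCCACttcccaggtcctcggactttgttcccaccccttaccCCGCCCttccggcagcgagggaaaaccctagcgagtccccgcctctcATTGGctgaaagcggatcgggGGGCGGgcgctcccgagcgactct
Mvk, chr5:114444019-114444268, strand plus: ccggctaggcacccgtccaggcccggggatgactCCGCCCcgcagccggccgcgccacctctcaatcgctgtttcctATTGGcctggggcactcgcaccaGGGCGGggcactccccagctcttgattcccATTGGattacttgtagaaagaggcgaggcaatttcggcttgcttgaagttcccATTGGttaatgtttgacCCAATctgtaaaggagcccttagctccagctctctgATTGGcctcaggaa
Msmo1, chr8:64733579-64733828, strand minus: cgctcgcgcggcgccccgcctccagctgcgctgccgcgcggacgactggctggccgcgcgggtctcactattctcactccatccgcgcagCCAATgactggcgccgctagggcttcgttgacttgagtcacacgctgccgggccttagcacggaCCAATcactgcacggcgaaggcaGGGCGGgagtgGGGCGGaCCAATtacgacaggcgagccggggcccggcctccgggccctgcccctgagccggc
Ebp, chrX:8193513-8193762, strand minus: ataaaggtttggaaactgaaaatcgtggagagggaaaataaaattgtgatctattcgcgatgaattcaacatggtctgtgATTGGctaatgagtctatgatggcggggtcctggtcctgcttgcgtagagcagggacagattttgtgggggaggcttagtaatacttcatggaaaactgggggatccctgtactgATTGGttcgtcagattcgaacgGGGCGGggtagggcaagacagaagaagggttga
Lipe, chr7:25395988-25396237, strand minus: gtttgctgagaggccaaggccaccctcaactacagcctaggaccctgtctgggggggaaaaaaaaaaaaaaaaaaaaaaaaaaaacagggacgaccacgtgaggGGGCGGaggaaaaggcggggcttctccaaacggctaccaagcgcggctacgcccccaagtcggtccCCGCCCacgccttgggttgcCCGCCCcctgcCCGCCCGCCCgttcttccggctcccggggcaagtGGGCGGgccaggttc
The Hmgcs1 window holds 3 CCAAT boxes and 1 sterol element core, whose first base lies 137 bases before the start. Mvk holds 5 CCAAT boxes, Msmo1 3 and Ebp 2. Lipe holds 0 CCAAT boxes and 6 GC boxes in its first listed window. A CCAAT box was present in a window of 13 of the 14 synthesis genes with an entry (92.9%), of 8 of the 12 other genes with one (66.7%), and of 37.5% of the 27025 genes kept from the table. The GC box was present for 13 of the 14 synthesis genes (92.9%), 10 of the 12 others (83.3%) and 35.4% of all genes. The sterol element core was present for 2 of 26 genes (7.69%), Hmgcs1 and Stard3, and for 1.23% of all genes. In the printed windows no matches overlap except 2 GC boxes of Lipe. The genes kept from the table were not limited to those expressed in gonads. A match describes these letters and shows no binding.

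Total counts were 31.8 to 46.4 M per testis library and 35.6 to 102 M per ovary library (M, 1e+06 counts), and 1 CPM (count per 1e+06 counts) stands for at least 31.8 counts. Each of the 31 genes passed the expression filter in both tissues. CPM values are given per library or as mean ± SD. Log2 fold changes are given ± SE from edgeR's quasi-likelihood test, with p adjusted over all genes tested. Tissue labels were checked with marker lists: Prm2, a sperm protamine, was at 3226 to 6300 CPM in testis and 0.09 to 0.9 CPM in ovary, and Foxl2, a granulosa cell factor, at 166 to 303 CPM in ovary and at most 0.13 CPM in testis. Oviduct markers (6 genes) summed to 1175, 413 and 141 CPM in ovary libraries F1 dose 2 A, F1 dose 2 B and F1 control A, and to at most 22.4 CPM in the other 24. Adipocyte markers (8 genes) summed to 280, 176 and 138 CPM in ovary libraries F1 control C, mother dose 1 B and mother dose 1 C, against 22.0 to 88.0 CPM in the others. Their part in the results was not tested.

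In unexposed animals the ovary held more RNA of most of these genes than the testis. Over the 6 control libraries of each tissue, 24 of the 31 genes were higher in ovary and 3 in testis at a 2-fold difference and an adjusted p under 0.05, while 35% of all 19176 genes tested were higher in ovary and 37.1% in testis. The median difference (testis minus ovary, log2) was -1.93 over the 31 genes and -0.01 over all genes. Among the synthesis genes 12 of 17 were higher in ovary, among the sterol sensors 4 of 5, and among the transport and ester genes 8 of 9. CPM divide by all counts, whereas these fold changes use TMM scaling. Scaling by library size alone moved the median of all genes by -0.56 (log2), and differences are read relative to it.

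**Figure D1:**
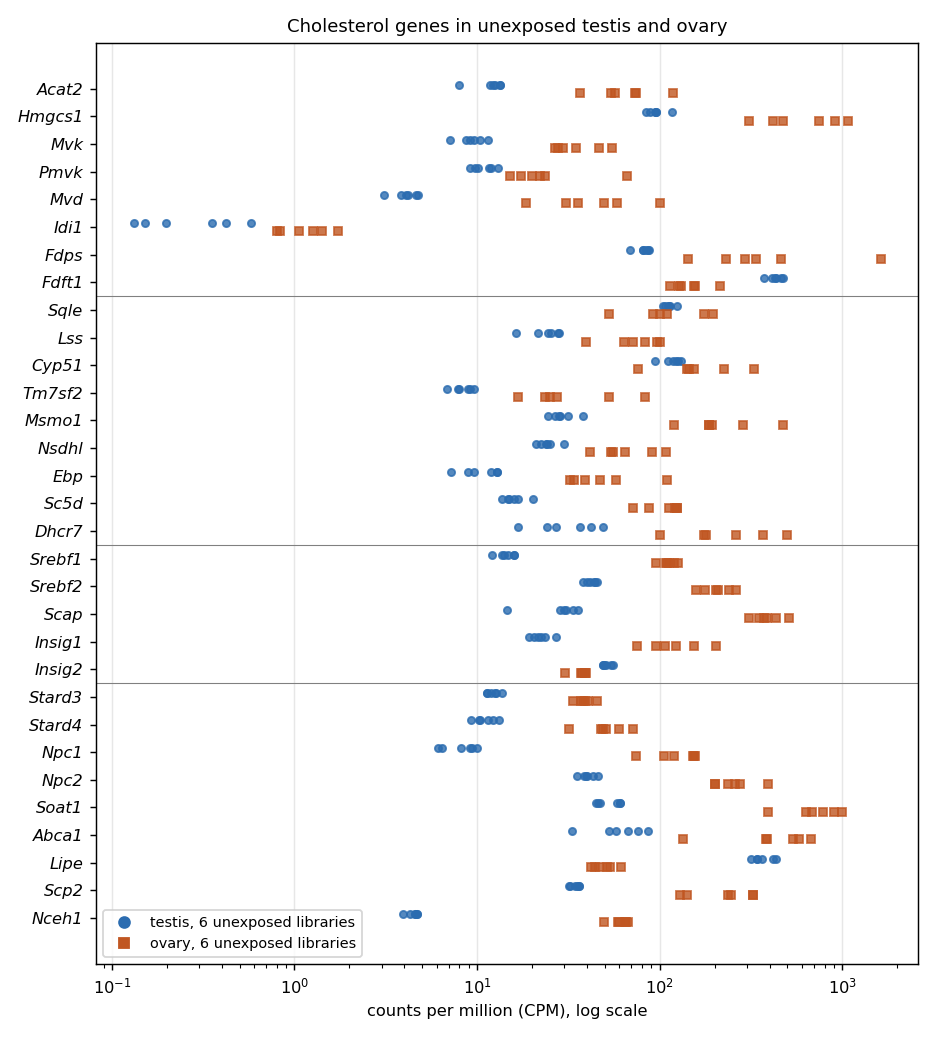
CPM (log axis) of the 31 genes in the 6 unexposed testis libraries (circles) and the 6 unexposed ovary libraries (squares); grey lines part the 4 roles. Fdft1, Lipe and Insig2 lie to the right in testis, whereas Npc1, Nceh1, Scap and Soat1 lie far to the right in ovary.

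The 3 genes higher in testis act at separate steps. Fdft1, squalene synthase, is the branch point that commits farnesyl diphosphate to sterols. It was at 374 to 474 CPM in testis (median 430) and 114 to 213 CPM in ovary (median 143), a log2 difference of 2.08 ± 0.16 (adjusted p = 1.3e-08). The groups did not overlap. Lipe, hormone-sensitive lipase, which frees cholesterol from its esters, was at 317 to 434 CPM in testis and 42.3 to 61.4 CPM in ovary, a difference of 3.43 ± 0.14 (adjusted p = 1.2e-11). An antisense gene overlaps Lipe and Ctsb overlaps Fdft1 on the other strand, and how strand was counted is not given in the sources used here; both values are uncertain to that extent. Insig2 was at 49.0 to 55.8 CPM in testis and 30.3 to 39.6 CPM in ovary (1.03 ± 0.09, adjusted p = 6.6e-08), just past 2-fold. Its difference was 0.47 by library size alone and 0.96 without ovary control parents B, under 2-fold in both.

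The relative of Insig2 went the other way. Insig1, itself a target of SREBP, was at 19.3 to 27.2 CPM in testis and 75.2 to 204 CPM in ovary (-1.93 ± 0.22, adjusted p = 1.1e-06). Per kb of exon, the Insig2 level was 14.8 CPM against 7.24 CPM for Insig1 in testis, and 10.7 against 40.9 CPM in ovary. The order of the pair by level was thus opposite in the tissues.

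The 6 largest differences towards ovary were in trafficking, ester storage, sensing and 2 enzymes. Npc1, which exports cholesterol from lysosomes, was at 6.12 to 9.98 CPM in testis and 74.2 to 157 CPM in ovary (-3.40 ± 0.16, adjusted p = 5.3e-11). Scap, the SREBP escort, was at 14.5 to 35.7 CPM in testis and 309 to 511 CPM in ovary (-3.24 ± 0.19, adjusted p = 5.6e-10). Nceh1, a neutral cholesterol ester hydrolase, was at 3.92 to 4.71 CPM in testis and 49.5 to 66.9 CPM in ovary (-3.21 ± 0.089, adjusted p = 1.8e-13). For none of these did a testis library reach an ovary library. Soat1, the enzyme that makes cholesterol esters, was at 44.8 to 60.6 CPM in testis and 392 to 1000 CPM in ovary (-3.21 ± 0.13, adjusted p = 1.1e-11). Mvd, the mevalonate diphosphate decarboxylase, was at 3.08 to 4.75 CPM in testis and 18.5 to 99.9 CPM in ovary (-2.96 ± 0.32, adjusted p = 6.0e-07). Dhcr7, which makes the last reduction to cholesterol in one branch, was at 16.7 to 48.7 CPM in testis and 100.1 to 496 CPM in ovary (-2.47 ± 0.40, adjusted p = 4.5e-05). Testis and ovary libraries did not overlap for these either, and the ovary values of Mvd and Dhcr7 spread widely.

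Of the remaining genes, 18 were higher in ovary by -1.11 (Lss and Stard3) to -2.43 (Msmo1) on the log2 scale, and 4 did not pass. Lss and Stard3 were under 2-fold with DESeq2 (-0.82 and -0.83) and without ovary F1 control A (-0.93 and -0.98), and Lss also without testis F1 control C (-0.99). Cyp51, the sterol demethylase that yields the meiosis-activating sterol, was at 94.8 to 131 CPM in testis and 76.2 to 327 CPM in ovary, a difference of 0.01 ± 0.26. Sqle, squalene epoxidase, was at 104 to 125 CPM in testis and 52.7 to 197 CPM in ovary (0.49 ± 0.24, adjusted p = 0.069), and was at -0.05 by library size alone. Nsdhl, a sterol dehydrogenase, differed by -0.92 ± 0.21 and Pmvk, phosphomevalonate kinase, by -0.73 ± 0.28, under 2-fold each. Idi1, an isomerase, was low in both tissues, at 0.13 to 0.58 CPM in testis and 0.80 to 1.74 CPM in ovary. Relatives or pseudogenes make the counts of Idi1, Fdps, Scp2, Acat2 and Npc2 uncertain.

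Levels were set between genes per kb of exon, which is a rough scale. Testis was led by Fdft1 (102 CPM per kb), Lipe (62.6), Cyp51 (26.6), Hmgcs1 (20.9) and Sqle (20.3). Ovary was led by Hmgcs1, the HMG-CoA synthase (143 CPM per kb), Fdps, farnesyl diphosphate synthase (123), Soat1 (74.8), Scp2, a sterol carrier (66.9) and Scap (53.0). The Fdps level rests on F1 control A: without that library, left out after its value was seen, Fdps was at 69.7 CPM per kb, below Soat1 (81.7), while Hmgcs1 still led at 124. Fdft1 ranked 1 of 31 in testis and 12 in ovary, Lipe 2 and 29, and Cyp51 3 and 10. Exon lengths were taken from a GRCm38 annotation and not the one used for counting. They join the exons of all annotated transcripts of a gene. A gene whose RNA holds only part of them is thus ranked too low.

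Of 44 other genes of the pathway found in the tables, out of 45 listed, 5 were higher in testis and 22 in ovary by the same rule. Tmem97, a sterol-binding protein of the endoplasmic reticulum, was at 491 CPM on average in testis and 42.5 CPM in ovary (4.08 ± 0.15, adjusted p = 4.3e-12). Rnf139, a sterol-regulated ubiquitin ligase, was at 592 and 41.8 CPM (4.38 ± 0.081, adjusted p = 4.1e-15), and Gramd1c, a sterol carrier of membrane contacts, at 110 and 7.48 CPM (4.43 ± 0.10, adjusted p = 2.3e-14). Mbtps1, the protease that cuts SREBP in the Golgi, was at 43.4 CPM in testis and 276 CPM in ovary (-2.12 ± 0.078, adjusted p = 3.9e-12).

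Direct exposure left the cholesterol genes of the testis without a change that passed. In F1 dose 1 against F1 control 0 of 31 passed in edgeR, where 0.0317% of all genes did; 2 had an unadjusted p under 0.05 and DESeq2 called 0. In dose 2 against control 0 passed, where 2.21% of all genes did; 2 had an unadjusted p under 0.05 and DESeq2 called 0. In dose 2 against dose 1 0 passed, where 0.227% of all genes did; 2 had an unadjusted p under 0.05, and DESeq2 called Fdft1 as lower. The median log2 fold changes over the 31 genes were 0.00, -0.01 and -0.02.

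The smallest p in these comparisons belonged to Fdft1. It was at 414, 433 and 374 CPM in F1 controls, 424, 426 and 421 CPM at dose 1 and 373, 369 and 375 CPM at dose 2. Control library C was as low as the dose 2 libraries. The log2 fold change was -0.23 ± 0.060 for dose 2 against dose 1 (adjusted p = 0.11) and -0.16 ± 0.060 for dose 2 against control (adjusted p = 0.15). Mvk, mevalonate kinase, was at 11.4, 9.58 and 8.66 CPM in controls and 8.63, 6.97 and 6.95 CPM at dose 2 (-0.43 ± 0.15, adjusted p = 0.12).

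In F2 testis, every change that passed against control parents was a decrease, except that of Idi1 from dose 2 fathers. With both parents at dose 2, 6 of 31 genes fell and 0 rose, where 4.59% of all genes passed in either direction. They were Acat2 at the entry of the pathway, Msmo1, Ebp, Sc5d and Dhcr7 of the later part, and Npc2, the lysosomal partner of NPC1. In all, 26 of the 31 genes were below the controls, with a median log2 fold change of -0.22, beside 0.01 over all genes. The medians were -0.14 for mevalonate to squalene, -0.43 for squalene to cholesterol, -0.24 for sterol sensing and -0.19 for transport and esters. In 15 genes (48.4%) all 3 libraries were below the 3 controls, and in 12.5% of all genes.

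Dhcr7 stood at 42.1, 48.7 and 36.6 CPM in the libraries of control parents and at 30.1, 30.1 and 19.7 CPM with both parents at dose 2. The highest of the latter was below the lowest control, and the log2 fold change was -0.66 ± 0.13 (adjusted p = 0.011). Ebp, the isomerase that moves the sterol ring's double bond, was at 12.9, 11.9 and 12.9 CPM in controls and 9.11, 9.41 and 5.84 CPM with both parents exposed (-0.62 ± 0.14, adjusted p = 0.017). Msmo1, which oxidises methyl groups of the sterol ring, was at 31.5, 37.8 and 28.5 CPM and at 23.8, 24.5 and 16.5 CPM (-0.58 ± 0.16, adjusted p = 0.041). In each of these genes library C of the exposed crosses was the lowest. Sc5d, the sterol desaturase, was at 15.9, 20.2 and 16.8 CPM in controls and 13.8, 14.5 and 9.59 CPM (-0.47 ± 0.12, adjusted p = 0.034). Acat2, a thiolase that joins acetyl-CoA units, was at 13.4, 12.6 and 13.4 CPM and at 9.62, 9.34 and 8.48 CPM (-0.51 ± 0.13, adjusted p = 0.036). Npc2 was at 43.3, 40.0 and 45.8 CPM and at 34.0, 36.7 and 34.5 CPM (-0.29 ± 0.079, adjusted p = 0.045). The groups did not overlap in any of the 6 genes.

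Among the genes that did not pass, Nsdhl (-0.34 ± 0.096, adjusted p = 0.051) and Fdps (-0.22 ± 0.066, adjusted p = 0.060) came nearest. Fdft1, Sqle, Cyp51 and Insig2 had adjusted p above 0.05 and log2 fold changes within 0.1 of 0. Library C of these crosses held the lowest of 27 testis values for 7 of the 17 synthesis genes. Without it 2 genes passed (Ebp and Dhcr7), and without library B 3 passed. The count was 0 without control library A and 1 (Dhcr7) without control library C.

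**Figure D2:**
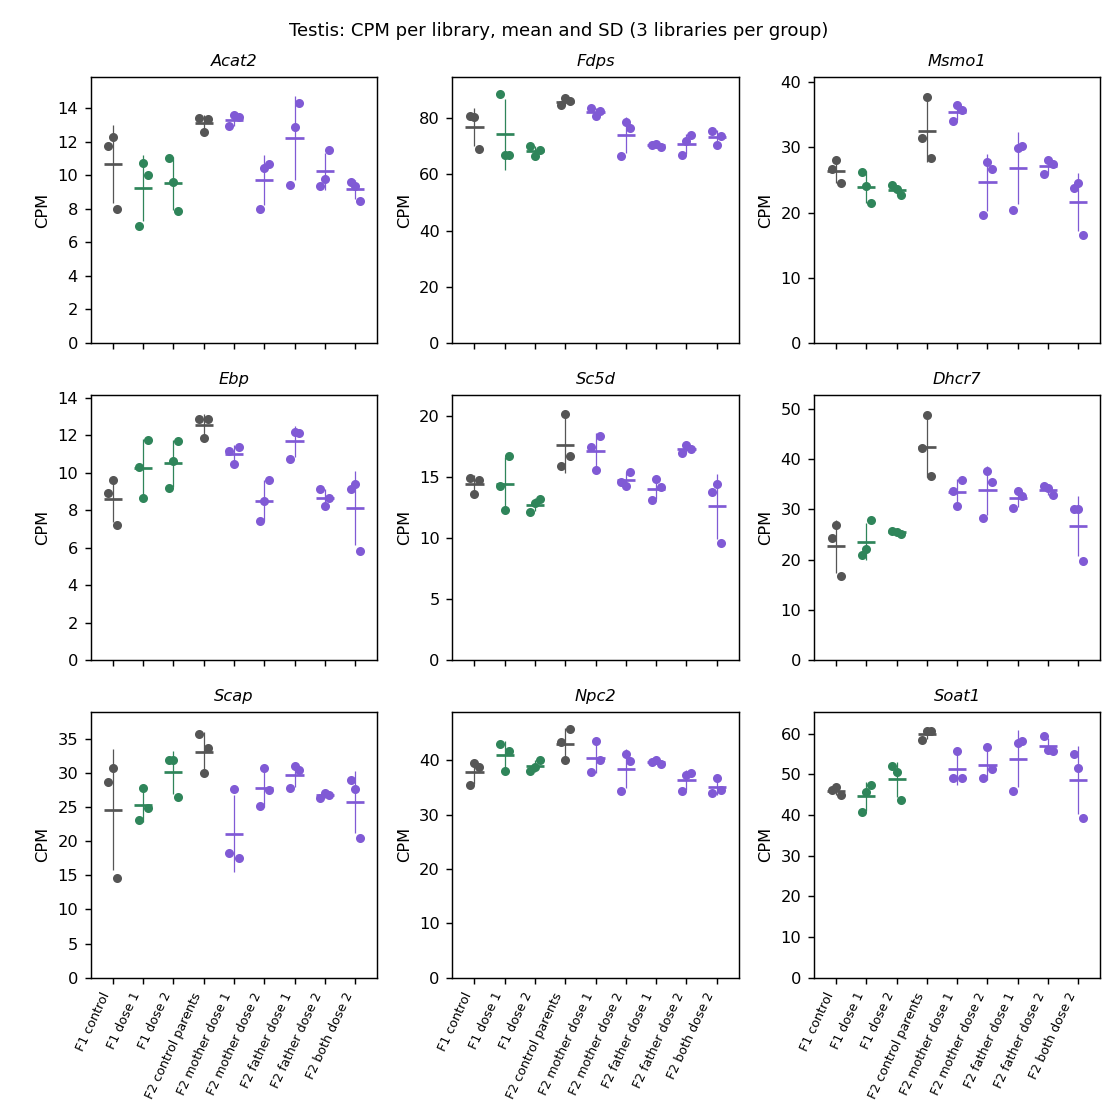
CPM in every testis library for 9 genes that passed in a testis comparison, by group; points are libraries (grey controls, green F1 doses, purple F2 from exposed parents), with the mean (horizontal line) and SD (vertical line) of 3 libraries. The F2 libraries of control parents are high for Dhcr7, Soat1 and Ebp, and the libraries with both parents at dose 2 include the lowest value for Ebp, Sc5d and Msmo1.

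With 1 exposed parent, 1 to 3 genes passed in each cross. From dose 2 mothers, 1 of 31 passed, where 1.7% of all genes did: Ebp, at 7.40, 8.51 and 9.63 CPM against the same 3 controls (-0.56 ± 0.14, adjusted p = 0.044). The 3 libraries were all below the controls, and 26 of 31 genes had a negative fold change, with a median of -0.21. The count was 0 without any of these 3 libraries or without control A or C, and 0 with the replicate letter as a block. DESeq2 called 4 (Acat2, Fdps, Ebp and Abca1).

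From dose 2 fathers, 3 of 31 passed, where 5.33% of all genes did. Ebp was at 9.13, 8.23 and 8.66 CPM (-0.56 ± 0.14, adjusted p = 0.029). Fdps was at 66.9, 71.9 and 73.9 CPM against 84.6, 87.1 and 86.2 CPM in controls (-0.31 ± 0.066, adjusted p = 0.019). Both were lower in each library than in any control. Idi1 was higher, at 0.39, 0.38 and 0.64 CPM against 0.13, 0.15 and 0.20 CPM (1.5 ± 0.42, adjusted p = 0.045), which rests on 13, 13 and 23 counts against 5, 6 and 8. The count was 0 without control A, control C, father dose 2 A or father dose 2 B, and 6 without control B.

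From dose 1 fathers, 1 of 31 passed, a smaller share than the 3.97% of all genes that did. It was Fdps, at 70.4, 70.8 and 69.9 CPM (-0.31 ± 0.066, adjusted p = 0.012). These libraries lay close together and below each control. The count was 0 without father dose 1 C, 2 without control B, and 0 with all 27 testis libraries in 1 fit. DESeq2 called 3 (Fdps, Cyp51 and Dhcr7). A protein-coding gene model overlaps Fdps on the same strand, so its counts are uncertain.

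From dose 1 mothers, 1 of 31 passed, where 0.816% of all genes did: Scap, at 18.2, 27.6 and 17.5 CPM against 35.7, 30.0 and 33.6 CPM in controls (-0.66 ± 0.14, adjusted p = 0.032). Libraries A and C were low, and B was close to the lowest control. The count was 0 without mother dose 1 A or C, without control A or C, and with all 27 testis libraries in 1 fit. Here the synthesis genes had a median of 0.01, with 10 of 17 positive. Msmo1 was at 34.1, 36.6 and 35.8 CPM in these libraries, within the range of its controls.

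These 5 comparisons share their 3 control libraries, so their directions are not independent. In control parents A, B and C, 12, 14 and 13 of the 17 synthesis genes were above their median over the testis libraries. The control group as a whole was thus high, as were dose 1 mothers (15 of 17 in each library). Mean Ebp was 12.5 CPM in control parents, 8.12 CPM with both parents at dose 2 and 8.58 CPM in F1 controls. For Dhcr7 these means were 42.5, 26.6 and 22.6 CPM. Both genes also passed between the control generations. In Leydig cell markers (8 of 8 genes found), the summed CPM was 1405 to 1509 in the libraries of control parents, 1178 to 1367 from dose 1 mothers and 815 to 1092 from dose 2 mothers. It was 964 to 1109 from dose 1 fathers, 1029 to 1090 from dose 2 fathers and 826 to 946 with both parents at dose 2. Insl3, the defining marker, was between 32.9 and 135 CPM in the 27 testis libraries and did not follow the sum throughout. It was at 59.7, 59.6 and 97.8 CPM in control parents and 52.9, 64.4 and 79.9 CPM with both parents at dose 2, which overlap. From dose 1 mothers it was at 78.3, 93.3 and 135 CPM, and from dose 2 mothers at 57.6, 48.8 and 40.0 CPM. Macrophage markers (8 of 8) summed to 109 to 113 CPM in control parents and 76.7 to 79.0 CPM with both parents at dose 2. In the same 2 groups Sertoli markers (8 genes) summed to 230 to 259 and 191 to 218 CPM, and peritubular and smooth muscle markers (5 genes) to 94.5 to 105.8 and 71.4 to 81.03 CPM. Theca markers (4 genes) summed to 743 to 819 and 499.6 to 532 CPM. Most of that sum was Cyp17a1, at 629 to 741 and 409 to 452 CPM, which like Insl3 is also on the Leydig list. Adipocyte markers went the other way, at 11.8 to 12.9 and 17.8 to 21.6 CPM. Library C with both parents at dose 2, the lowest for many of the genes above, held 20400 CPM of elongating spermatid markers (7 genes), against 15250 and 16490 CPM in A and B, and 1724 CPM of round spermatid markers (7 genes), against 1407 and 1464 CPM. The part of these markers in the results was not tested.

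Crosses with the same dose in the father or in the mother were set against each other directly, without the shared controls. At dose 1, 0 of 31 genes passed in edgeR, where 1.16% of all genes did; 10 had an unadjusted p under 0.05, and DESeq2 called 3 (Hmgcs1 and Fdps lower, Scap higher from fathers). Without mother dose 1 B 2 genes passed in edgeR (Cyp51 and Scap). The share of all genes with an unadjusted p under 0.05 was 15.1%. The synthesis genes had a median log2 fold change of -0.22, with 15 of 17 negative. In 9 of 17 (52.9%) all father libraries were below all mother libraries, and in 12.3% of all genes. Hmgcs1 was at 80.9, 82.2 and 90.8 CPM from fathers and 125, 162 and 117 CPM from mothers (-0.68 ± 0.23, adjusted p = 0.18). Scap was at 27.7, 31.01 and 30.5 CPM from fathers (0.48 ± 0.14, adjusted p = 0.11). At dose 2, 0 of 31 passed in edgeR, where 0.109% of all genes did; 0 had an unadjusted p under 0.05, and DESeq2 called 0.

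Control testes of the generations differed. In F2 control parents against F1 control, 4 of 31 genes were higher and 0 lower, where 14.5% of all genes passed. Dhcr7 was at 24.3, 26.96 and 16.7 CPM in F1 and at the 3 F2 values above (0.89 ± 0.15, adjusted p = 0.0015). Soat1 was at 46.1, 46.8 and 44.8 CPM in F1 and 58.5, 60.6 and 60.6 CPM in F2 (0.37 ± 0.093, adjusted p = 0.013). Ebp was at 8.90, 9.63 and 7.22 CPM in F1 (0.53 ± 0.14, adjusted p = 0.017), and Lipe at 339, 341 and 317 CPM in F1 and 417, 364 and 434 CPM in F2 (0.27 ± 0.076, adjusted p = 0.022). In each of the 4 genes every F2 control was above every F1 control. The share of the 31 genes that passed (12.9%) was close to that of all genes. The count was 1 (Dhcr7) without F1 control C, 2 (Dhcr7 and Soat1) without F2 control A or C, and 7 without F1 control B or F2 control B. Generations were not compared within a library batch, which the labels do not give. Leydig markers summed to 1055 to 1135 CPM in the F1 controls.

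Neighbouring lipid genes of the pathway list were counted in the same testis comparisons. Of 43 tested in F2, 5 passed with both parents at dose 2 (0 higher, 5 lower), where 4.59% of all genes did, and 5 from dose 2 fathers (1 higher, 4 lower), where 5.33% did. From dose 2 mothers 3 passed (all lower), beside 1.7% of all genes, from dose 1 fathers 3 (all lower), beside 3.97%, and from dose 1 mothers 0, beside 0.816%. Fads1, a fatty acid desaturase, was at 155, 161 and 147 CPM in control parents and 101, 98.3 and 74.8 CPM with both parents at dose 2 (-0.75 ± 0.11, adjusted p = 0.0011). Fads2, the desaturase of a neighbouring step, was at 254, 269 and 252 CPM and at 183, 174 and 129.8 CPM in the same groups (-0.67 ± 0.12, adjusted p = 0.0058), again without overlap. Both were also lower from dose 2 mothers, dose 1 fathers and dose 2 fathers. In F1, 1 of 42 (2.38%) passed at dose 2, near the 2.21% of all genes: Tmem97, at 501 ± 9.02 CPM in controls and 427 ± 11.9 CPM at dose 2 (n = 3, -0.26 ± 0.055, adjusted p = 0.045). Between the control generations, 6 of 43 (13.95%) were higher in F2, among them Fads1 (0.55 ± 0.12, adjusted p = 0.0073), and 14.5% of all genes passed, which is a like share.

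**Figure D3:**
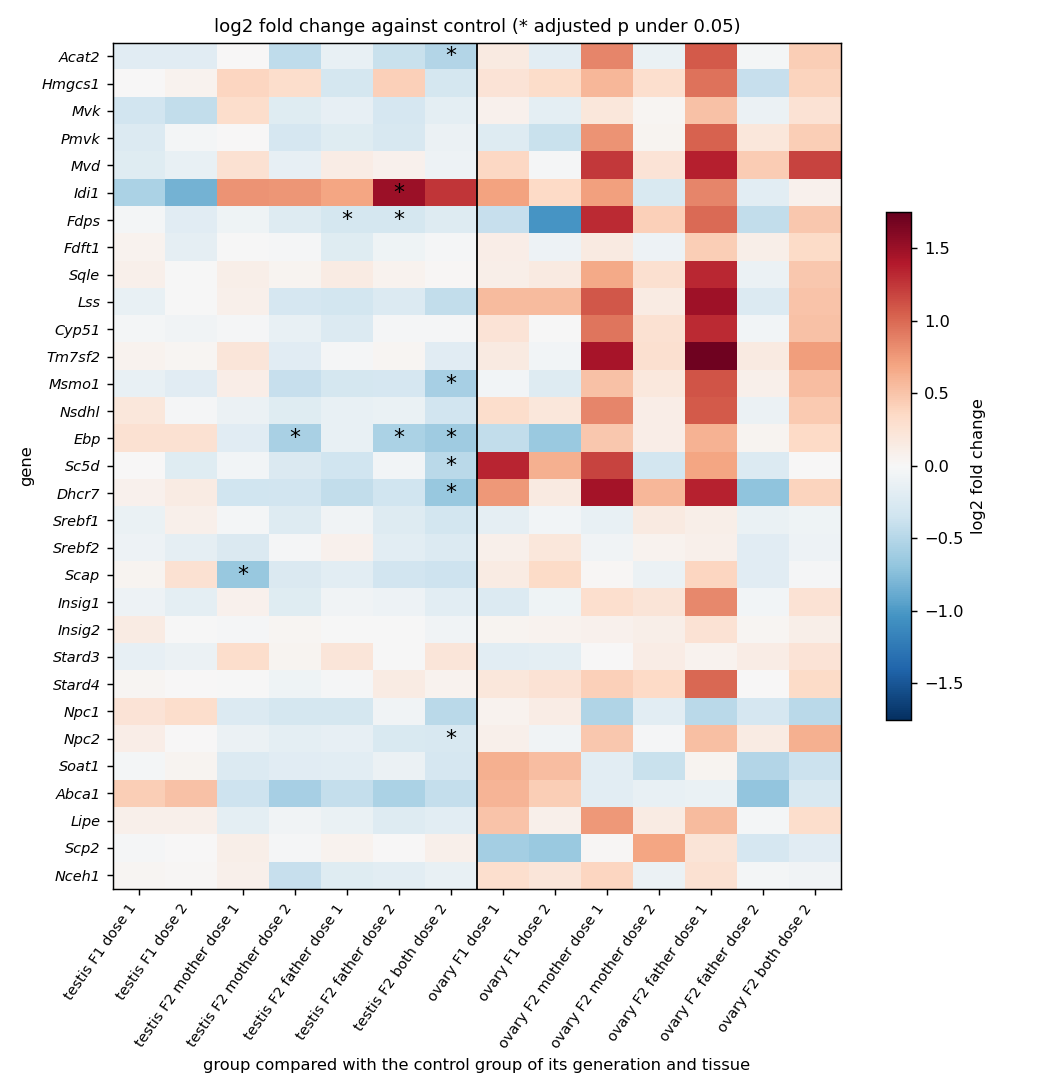
Log2 fold change of each of the 31 genes (rows) against the control group of its generation, for the 7 testis and 7 ovary comparisons (columns, separated by the line); red is higher, blue lower, and stars mark adjusted p under 0.05. Stars stand in testis F2 columns, and the ovary columns of dose 1 mothers and dose 1 fathers are red over the synthesis genes without a star.

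In the ovary 0 of the 31 genes passed in any of the 11 comparisons in edgeR. In the F1 comparisons 0% of all genes passed for dose 1, 0% for dose 2 and 0% for dose 2 against dose 1. The numbers of cholesterol genes with an unadjusted p under 0.05 were 5, 2 and 1 of 31 (16.1%, 6.45% and 3.23%), beside 5.27%, 11.96% and 4.71% of all genes, and DESeq2 called 1 (Sc5d), 0 and 0. In F2, 0% of all genes passed from dose 1 mothers, 0% from dose 2 mothers, 0% from dose 1 fathers, 0.00573% from dose 2 fathers and 0.688% with both parents at dose 2. The cholesterol genes with an unadjusted p under 0.05 numbered 11, 1, 17, 2 and 3 (35.5%, 3.23%, 54.8%, 6.45% and 9.68%). Over all genes these shares were 9.20%, 5.83%, 9.63%, 15.8% and 24.5%. Of these F2 comparisons, dose 1 mothers and dose 1 fathers gave a larger share in the cholesterol genes. F1 dose 1 (above) and F2 against F1 controls (below) also gave a larger share, the latter between unexposed groups. DESeq2 called 2 (Sc5d and Lipe), 0, 0, 0 and 2 (Stard3 and Npc2). Father against mother gave 0% of all genes at dose 1 and 0.00573% at dose 2, with 0 and 4 cholesterol genes (0% and 12.9%) under an unadjusted p of 0.05, beside 4.93% and 20.4% of all genes, and 0 and 1 (Scp2) by DESeq2. F2 against F1 controls gave 0% of all genes, with 10 cholesterol genes (32.3%) under an unadjusted p of 0.05, beside 13.96% of all genes, and 0 by DESeq2.

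What set the ovary apart was the spread between libraries of 1 group. Over 27 libraries the ratio of the highest to the lowest CPM had a median of 4.96 for the 17 synthesis genes and 2.32 for all genes tested, against 2.08 and 1.86 in testis. The median SD within groups was 0.53 (log2 CPM) for the synthesis genes and 0.26 for all genes in ovary, and 0.20 and 0.18 in testis. Sterol sensors (median ratio 1.73) and transport genes (2.33) spread less in ovary than the synthesis genes. The widest ranges were those of Fdps, at 11.3-fold, and Dhcr7, at 8.75-fold.

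The synthesis genes were high or low together in the same ovary libraries. Their CPM summed to 5266 in F1 control A, 4733 in F1 dose 1 A, 4908 in F1 dose 2 C, 5782 in mother dose 1 C, 4354 in father dose 1 A and 5035 in father dose 1 B. The sums were lowest in control parents A (1247), father dose 2 A (1527), mother dose 2 C (1542) and father dose 2 C (1581). High libraries thus stood in F1 control, both F1 dose groups and both F2 dose 1 groups. In father dose 1 B and mother dose 1 C, 15 of 17 genes were among their 4 highest of 27 values. In control parents A, 9 of 17 were at their lowest.

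Luteal markers (8 of 8 genes, none of them a cholesterol gene described here) were high in the same 6 libraries. Their summed CPM was 24580 in F1 control A, 23470 in F1 dose 1 A, 22990 in F1 dose 2 C, 23040 in mother dose 1 C, 25590 in father dose 1 A and 23830 in father dose 1 B. In F1 control B the sum was also high, at 22910, with a synthesis sum of 3028. The other 20 libraries held 10500 to 19080. Star, the first marker of the list and the carrier of cholesterol into mitochondria, ranged from 235 to 5153 CPM. Most of the sum came from Cyp11a1 (4582 to 10260 CPM), Hsd3b1 (3649 to 8370 CPM) and Star, which steroid-making cells express in general. Akr1c18, which breaks down progesterone, was at 8.11 to 4686 CPM and Parm1 at 8.95 to 51.0 CPM, and neither followed the sum: Akr1c18 was at 174.5 CPM in mother dose 1 C and 1292 CPM in control parents C, and Parm1 at 16.5 CPM in F1 control A. Lhcgr and Star followed the sum only in part. Lhcgr, also on the list, was at 2277 CPM in father dose 1 A but at 348 CPM in F1 control A. Star was at 3371 CPM in mother dose 1 B, where the sum was 14390 CPM. The part of luteal markers in the results was not tested.

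**Figure D4:**
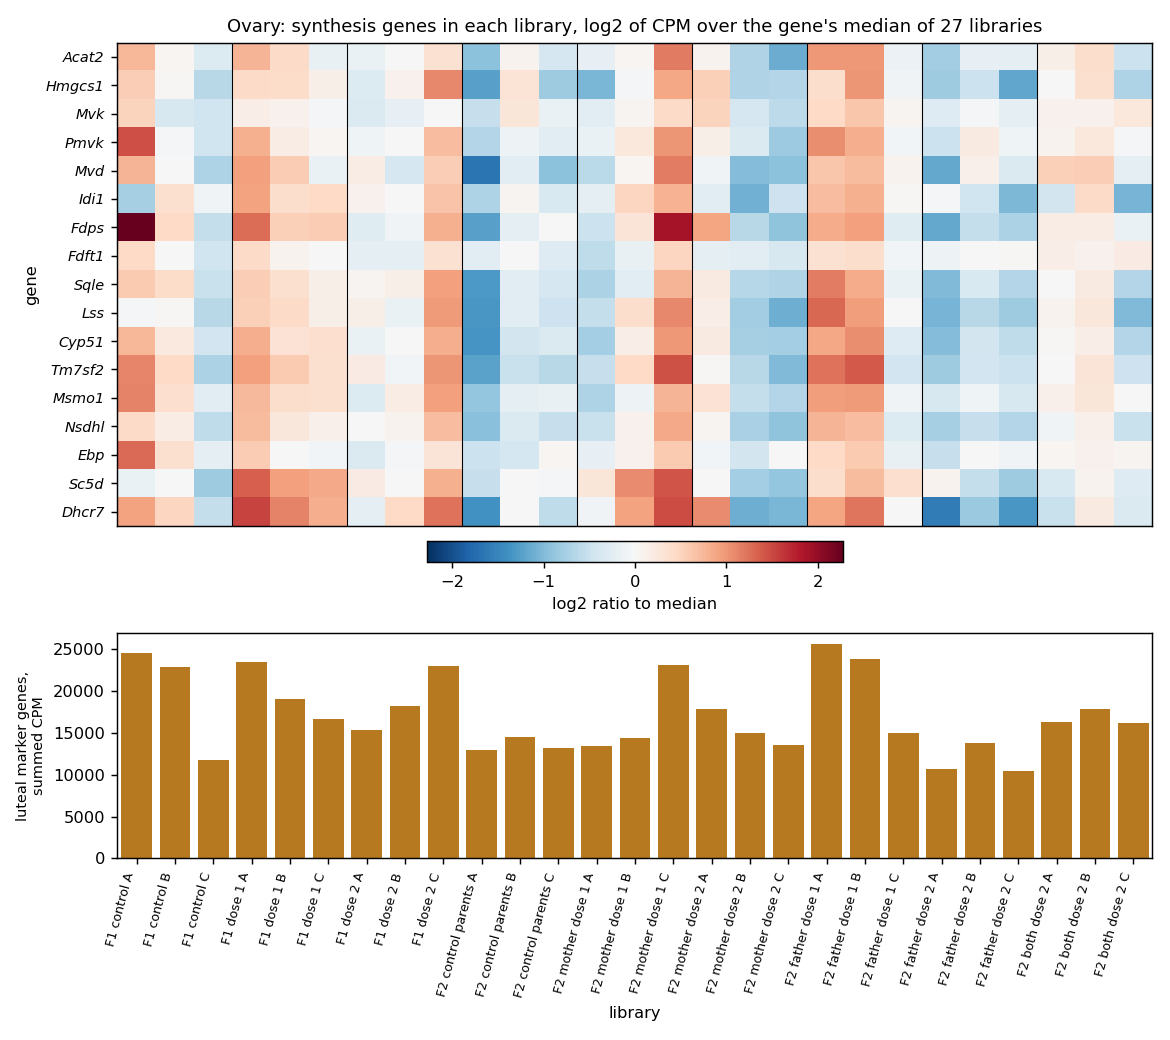
Upper panel: the 17 synthesis genes in the 27 ovary libraries, as log2 of CPM over the gene's median (red above, blue below), with lines between groups. Lower panel: summed CPM of 8 luteal markers in the same libraries. Father dose 1 A and B are red above and tall below. Mother dose 1 B, with 13 of 17 genes above their median, summed to 14390 CPM. Library B with both parents at dose 2, with 17 of 17 above, summed to 17870 CPM.

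From dose 1 fathers the 17 synthesis genes were all above the controls in fold change, with a median of 1.07, and 13 had an unadjusted p under 0.05, beside 9.63% of all genes. In 9 of 17 (52.9%) every library was above every control, and in 7.40% of all genes. The 17 genes varied together between libraries, so counts of them, here and below, do not stand for independent observations. The median ratio to the gene's own median over the ovary libraries was 1.79, 1.80 and 0.945 in libraries A, B and C. Tm7sf2, a sterol reductase, was at 91.6, 101 and 28.4 CPM against 16.7, 27.2 and 25.0 CPM in control parents. Libraries A and B were far above the controls, and C was near them. The log2 fold change was 1.70 ± 0.50 (adjusted p = 0.36). Lss, lanosterol synthase, was at 246, 192 and 98.9 CPM against 39.3, 83.1 and 71.4 CPM (1.49 ± 0.48, adjusted p = 0.38), and Sqle at 292, 236 and 117 CPM against 52.7, 110 and 100.3 CPM (1.31 ± 0.45, adjusted p = 0.40). Stard4, a soluble sterol carrier, followed them at 107, 99.9 and 51.4 CPM against 31.7, 50.6 and 47.7 CPM (1.01 ± 0.34, adjusted p = 0.40).

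From dose 1 mothers the fold changes of the 17 genes were again all positive, with a median of 0.85, and library C carried the highest values. Sc5d was at 151, 262 and 336 CPM against 87.2, 125 and 121 CPM (1.18 ± 0.31, adjusted p = 0.31), with no overlap. Lipe was at 55.7, 87.3 and 90.5 CPM against 42.3, 51.4 and 44.1 CPM (0.76 ± 0.20, adjusted p = 0.31), also without overlap. Without mother dose 1 A these 2 genes passed in edgeR. With both parents at dose 2 the 17 genes were also all positive, with a median of 0.43, and 1 had an unadjusted p under 0.05. From dose 2 mothers and dose 2 fathers the medians were 0.14 and -0.10. All 5 comparisons use the same 3 control libraries, of which A was the lowest. In A, B and C, 0, 5 and 1 of the 17 genes were above their median over the ovary libraries, so the control group as a whole was low.

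In F1 ovary the smallest p belonged to Sc5d at dose 1. It was at 113, 124 and 71.1 CPM in controls and 319, 239 and 227 CPM at dose 1, with no overlap (1.33 ± 0.29, adjusted p = 0.59). At dose 2 it was at 142, 125 and 218 CPM. Dhcr7 at dose 1 was at 763, 571 and 465 CPM against 496, 369 and 179 CPM, and its groups overlapped. Scp2 was at 323, 323 and 245 CPM in F1 controls, 199, 168 and 232 CPM at dose 1 and 138, 270 and 174 CPM at dose 2.

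Scp2 also had the smallest p of the parent comparison. It was at 150, 139 and 132 CPM from dose 2 fathers and 340, 192 and 278 CPM from dose 2 mothers, with no overlap (-0.99 ± 0.25, adjusted p = 0.094). Control parents were at 140, 129 and 236 CPM. F2 against F1 control ovaries had a negative fold change in 16 of 17 synthesis genes, with a median of -0.87. Fdps was at 1631, 461 and 232 CPM in F1 controls and 144, 294 and 337 CPM in F2 controls, so that F1 control A stood far above the others and the groups overlapped.

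**Figure D5:**
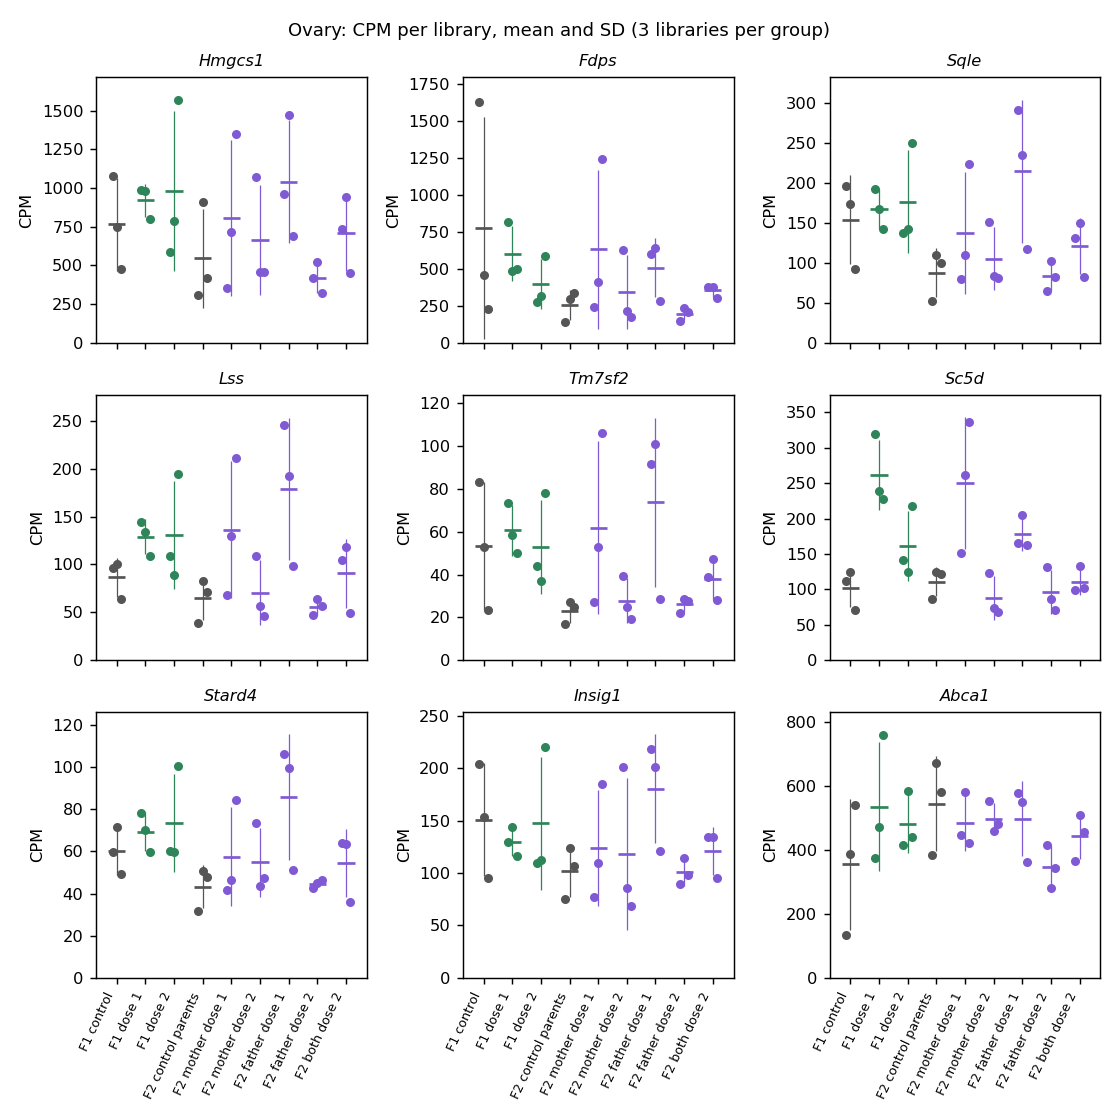
CPM in every ovary library for 9 genes, by group; points are libraries (grey controls, green F1 doses, purple F2 from exposed parents), with the mean (horizontal line) and SD (vertical line) of 3 libraries. Values within a group spread widely for Fdps, Lss and Tm7sf2, and the father dose 1 group holds 2 high libraries and 1 near the controls for Tm7sf2.

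The sterol sensors had narrower ranges in ovary, with a median ratio of highest to lowest of 1.73. Srebf2, the SREBP gene with the closest link to synthesis, was at 157 to 271 CPM over the 27 libraries, and Srebf1, whose products also drive fatty acid synthesis, at 86.8 to 128 CPM. Insig2 was at 30.3 to 43.2 CPM, whereas Insig1 reached from 68.0 to 221 CPM. Abca1, which exports cholesterol to lipoproteins, was at 134 to 759 CPM and was lowest in F1 control A. None of the 44 other pathway genes passed in an ovary comparison in edgeR.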

How the data were processed

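RNA of whole mouse testis and ovary was extracted with TRIZOL, made into libraries with a stranded mRNA ligation kit and read at 100 nt, per the labels' protocols. The authors deposited raw counts per gene and library, 1 table per tissue. Per the submitters' processing notes, the build was mm39 and the tools named are featureCounts 2.0.3, SAMtools 1.13, Bowtie2 2.4.5, TopHat2 2.1.1, FastQC 1.19, bcl2fastq 2.20 and DESeq2 1.32.0. Annotation and strand setting were not given in the sources used here; counts of overlapping genes are uncertain. Of 26264 entries, 133 have a symbol and no gene ID.

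Groups come from the sample titles. Crosses are read as male parent first, as those titles name them. The 31 genes, their roles and the marker and pathway lists were chosen with earlier results of these data known. From the counts, edgeR 4.0.16 (R 4.3.3, limma 3.58.1) was fitted over all libraries of a generation and tissue, with TMM scaling, filterByExpr at a minimum count of 10, robust quasi-likelihood tests and Benjamini-Hochberg adjustment over all genes tested, at 0.05. F2 against F1 controls used all 27 libraries of a tissue. Testis against ovary used the 6 control libraries of each and a 2-fold minimum. CPM divide by the total count, and SE is the fold change over the root of F. The code was tested on simulated data. Among 54 replicate pairs none agreed within sampling noise (lowest chi-square per degree of freedom 3.24).

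Per-library values are given for genes that passed in a tissue, for the smallest p where fewer than 4 passed, for the 6 largest differences each way between tissues, and for Insig1 and Insig2. Of the pathway list, up to 4 genes per comparison were named by p. Some of these genes are counted but not reported by name here. Other genes given with values (among them Fdft1, Mvk, Hmgcs1, Lss, Sqle, Stard4 and the sterol sensors) were chosen after their values were seen. Exon lengths (GENCODE M21) and promoters (RefSeq) are of GRCm38, not the build of the counts, and were joined by symbol.

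Alternatives were DESeq2 1.42.0, RLE scaling, a block for the replicate letter, no filter on low counts, 1 fit per tissue, and leaving out each library. Ovary levels per kb without F1 control A were added after seeing the data. The letters A, B and C pair libraries by correlated deviations (over 0.1 for all 3 letters) in 2 of 22 comparisons: ovary F1 dose 1 against control (0.205, 0.211 and 0.375) and ovary mother dose 1 against control parents (0.226, 0.278 and 0.104). What the libraries of a letter have in common is not stated.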

Additional observations from a re-analysis of the deposited data

Results flagged for a closer look

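In each tissue the 6 unexposed libraries were looked at for each gene, and in 8 of 62 such sets 1 library lay far from the other 5. Chance gives about 1 in 20, and the same look over all genes tested found 5.08% in testis and 23.1% in ovary, beside 12.9% of the 31 genes in each tissue. Of the 8 sets, 6 come from 2 libraries, testis F1 control C and ovary F1 control A (3 each), and are not independent. In testis, F1 control C was low for Acat2 (7.97 CPM, others 11.8 to 13.4), Fdps (69.2 CPM, others 80.6 to 87.1) and Scap (14.5 CPM, others 28.6 to 35.7). Hmgcs1 was high in F2 control parents B (117 CPM, others 84.5 to 95.9). In ovary, F1 control A was high for Pmvk (65.9 CPM, others 15.1 to 23.6), Fdps (1631 CPM, others 144 to 461) and Ebp (109.9 CPM, others 32.1 to 57.9). Insig2 was low in F2 control parents B of the ovary (30.3 CPM, others 37.2 to 39.6).

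Over 7 comparisons with controls and 31 genes (217 pairs of tissues), 6 gave groups apart in opposite directions in testis and ovary. That is 2.76% of the pairs, beside 1.94% over all genes tested in both tissues. The difference between tissues was not tested. None of the 6 ovary values passed in edgeR, and of the 6 testis values 2 did (Msmo1 and Npc2 with both parents at dose 2) and 4 did not. From dose 1 fathers, the log2 fold change was -0.24 in testis and 1.302 in ovary for Cyp51, -0.35 and 0.69 for Sc5d, and -0.15 and 0.53 for Npc2. With both parents at dose 2 it was -0.58 and 0.54 for Msmo1 and -0.29 and 0.62 for Npc2. At F1 dose 2 it was -0.22 and 0.62 for Sc5d.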

How the results depend on the processing

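Among 47 fold changes of single genes under 647 settings, 576 kept their direction and side of the threshold, 67 lost the call, 4 gained it and 0 reversed. Of the 47, 27 were differences between testis and ovary, where only Insig2, Lss and Stard3 fell under 2-fold in any setting. The 47 also hold ovary values that did not pass. The pooled figures thus say little about the calls within testis, whose counts follow. The cause was not tested. With DESeq2 the counts of the 31 genes called were 1 for testis F1 dose 2 against dose 1, 4 for testis dose 2 mothers, 3 for testis dose 1 fathers and 3 for testis father against mother at dose 1. In ovary DESeq2 called 1 at F1 dose 1, 2 from dose 1 mothers, 2 with both parents at dose 2 and 1 for father against mother at dose 2. With all 27 testis libraries in 1 fit the count was 0 for dose 1 mothers and 0 for dose 1 fathers. Leaving out each library in turn gave 0 to 1 genes for testis dose 1 mothers, 0 to 1 for dose 2 mothers, 0 to 2 for dose 1 fathers, 0 to 6 for dose 2 fathers, 0 to 7 for both parents at dose 2, 0 to 2 for father against mother at dose 1, 1 to 7 for the control generations and 0 to 2 for ovary dose 1 mothers. Idi1 in dose 2 fathers lost its call without the low-count filter, and so did Npc2 with both parents at dose 2.

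With the replicate letter as a block the count was 0 for testis dose 2 mothers, where the letters do not pair libraries, and within 1.5 times the reported count elsewhere. In both ovary comparisons whose letters pair libraries it was 0, as without the block. Of low genes, Idi1 rests on 5 to 23 counts in testis dose 2 fathers and their controls.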

Other observations

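The 31 genes held 0.391% to 0.905% of all counts in ovary libraries and 0.151% to 0.194% in testis libraries. Ovary F1 control A, which had the highest Fdps level of the 27 ovary libraries (1631 CPM), had the lowest Abca1 level (134 CPM, others 281 to 759) and the lowest Npc1 level (74.2 CPM). Testis library C with both parents at dose 2 had the lowest Nceh1 (2.64 CPM) and Npc1 (4.52 CPM) levels of the 27 testis libraries.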
